A study of Mus musculus with 2 samples.

Results

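A set of 10 genes of the cell skeleton was followed through every cell class of the mouse aortic arch and through both diets. They encode the beta-thymosins Tmsb4x and Tmsb10, the cytoplasmic actins Actb and Actg1, the actin regulators Pfn1 (profilin) and Cfl1 (cofilin), and the tubulins Tubb5, Tuba1a, Tuba1b and Tubb6. They were chosen by symbol, 10 of the 31053 genes in the counts, and all 10 were found. The choice followed earlier results of these same libraries, so the levels below are a description.

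Single-cell RNA sequencing was carried out with 1 library for each diet, which held the pooled cells of the aortic arches of 2 male Apoe-/- mice on C57BL/6, 16 weeks old. Both libraries carry the same genotype, which lacks apolipoprotein E. The normal diet (ND) group received chow, and the high fat diet (HFD) group received a high fat, high cholesterol diet with lard, sucrose, casein and sodium cholate. The arches were perfused with PBS and digested with a kit made for lung. The unique molecular identifiers (UMIs) of each gene were counted per barcode, and 5416 ND cells with 27137322 UMIs and 2739 HFD cells with 17191279 UMIs were kept. The median cell had 3732.5 UMIs under ND and 5336 under HFD. The median share of mitochondrial UMIs was 16.8% under ND and 21.9% under HFD, and haemoglobin genes took 0.391% and 2.66% of all UMIs. Since each diet has 1 library, there are no replicates and no test was made, and a difference between diets cannot be told apart from a difference between 2 libraries. Intervals are exact, at 95%, and cover counting error only.

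Actin monomers (G-actin) join into filaments and leave them again. Beta-thymosins are small proteins that hold actin monomers in reserve, profilin exchanges their nucleotide and hands them to growing filament ends, and cofilin severs old filaments. Alpha- and beta-tubulin form the paired unit of microtubules, which carry cargo and build the spindle of a dividing cell. When few free monomers are left, the MRTF cofactors bind serum response factor (SRF), which acts on genes of the actin skeleton through a DNA motif named the CArG box.

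The genes come in near copies, and how alike the copies are where they are read bears on how well their reads can be told apart. The coding sequences of both thymosins have the same length, 135 bases, and are printed here to show how they differ. They are the transcripts Tmsb4x-201 and Tmsb10-201 of GENCODE M21 on GRCm38, 5′ to 3′, with capitals at the bases that differ between them.
Tmsb4x: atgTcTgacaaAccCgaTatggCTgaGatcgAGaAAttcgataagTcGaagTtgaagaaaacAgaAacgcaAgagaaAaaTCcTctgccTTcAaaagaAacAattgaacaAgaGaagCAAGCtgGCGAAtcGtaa
Tmsb10: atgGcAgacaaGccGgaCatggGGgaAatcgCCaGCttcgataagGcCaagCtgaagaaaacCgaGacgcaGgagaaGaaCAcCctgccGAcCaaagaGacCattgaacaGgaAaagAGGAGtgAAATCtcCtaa
These sequences are identical at 95 of 135 bases (70.4%), and their longest identical stretch has 10 bases. Actb and Actg1 share 1000 of 1128 coding bases (88.7%). Tuba1a and Tuba1b share 1333 of 1356 (98.3%), with 281 bases in the longest identical stretch. Only coding bases were compared, and which part of the transcripts was read is not stated. How the reads of Tuba1a and Tuba1b divide between them is therefore uncertain.

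The 9 genes whose positions are given here lie apart in the genome, except for the alpha-tubulins. On GRCm38, Tmsb4x (ENSMUSG00000049775) spans chrX:167207093-167209315 and Tmsb10 (ENSMUSG00000079523) chr6:72957347-72958748, both on the minus strand. Actb (ENSMUSG00000029580) spans chr5:142903115-142906754 on the minus strand, and Actg1 (ENSMUSG00000062825) spans chr11:120345690-120348542 on the minus strand. Tuba1b (ENSMUSG00000023004) at chr15:98931425-98934565 and Tuba1a (ENSMUSG00000072235) at chr15:98949837-98953703 are both on the minus strand of chromosome 15. Pfn1 (ENSMUSG00000018293) spans chr11:70651850-70654644 and Tubb5 (ENSMUSG00000001525) chr17:35833921-35838306 on the minus strand, and Cfl1 (ENSMUSG00000056201) spans chr19:5490455-5495201 on the plus strand. Promoter windows of 250 bases before to 50 after the start were found for 8 of the 10 genes in the RefSeq table of GRCm38.p6. These 8 genes have 10 windows, and none was at hand for Actb and Tubb6, which were not searched. In the bases before the start, 1 of the 8 genes with a window, Actg1, holds a CArG box on either strand. Over all genes, 482 of 32851 windows hold one (1.47%). The box lies 90 bases before the start of Actg1 in RefSeq, which is not the end of the GENCODE span given above. It is shown in capitals beside the windows of Srf and Vcl, which belong to the list of SRF targets described further on.
Actg1 chr11:120348546-120348615, minus strand: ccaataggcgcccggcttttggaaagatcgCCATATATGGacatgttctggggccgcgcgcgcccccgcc
Srf chr17:46556185-46556274, minus strand: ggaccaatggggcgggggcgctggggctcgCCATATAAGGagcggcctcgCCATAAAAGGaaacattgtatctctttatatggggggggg
Vcl chr14:20929148-20929210, plus strand: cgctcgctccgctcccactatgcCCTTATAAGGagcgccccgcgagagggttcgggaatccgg
A match of letters is a description of the sequence and not a site of binding.

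Cells were placed in classes by their markers. A class needed a UMI of at least 3 of its 6 markers, and a barcode that passed more than 1 of 14 gates was set aside as mixed. This gave 2206 ND and 1132 HFD endothelial cells, 942 and 406 fibroblasts, 317 and 424 macrophages, 503 and 13 B cells and 264 and 26 T cells. A further 72 and 7 were neutrophils, 29 and 23 monocytes, 19 and 24 dendritic cells and 27 and 11 mural cells. Mixed barcodes numbered 739 and 531. The labelled tissue is the aortic arch, whose wall is rich in smooth muscle, but few cells passed the mural gate alone. The gate of airway club cells alone was passed by 58 ND cells and 0 HFD cells. Among mixed barcodes, 53 ND and 77 HFD passed both the endothelial and mural gates, and a further 58 ND passed both the endothelial and club gates and 21 ND both the fibroblast and club gates. Within the endothelium, 1937 and 1030 cells carried capillary markers (Gpihbp1, Cd36, Rgcc and others), while 184 and 76 carried luminal markers such as Vwf and Vcam1. Among macrophages, 222 and 202 were of the resident Lyve1 and Folr2 type and 8 and 149 of the foam type with Trem2 and Gpnmb. Levels are in CPM, the UMIs of a gene scaled to the same total of UMIs in every class. A UMI stands for a molecule and is not divided by length. Marker sums follow from the gating and are given as a description. In ND endothelial cells the endothelial list summed to 8162 CPM, against 143.8 for the fibroblast list, 79.3 for the macrophage list and 189.6 for the club list, of which Scgb1a1 made 134.7.

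Tmsb4x was high in blood-derived cells and in endothelial cells as a whole class, and much lower in the other cells of the wall. In the ND library it stood at 14679 CPM in neutrophils, 14616 in monocytes, 13513 in endothelial cells, 13178 in macrophages, 10453 in T cells and 9674 in B cells. A step lower came mural cells (3245), fibroblasts (3084), Schwann cells (3012) and club cells (2775), and adipocytes were at 82.6. Neutrophils and monocytes could not be separated within counting error, nor could neighbours in the order from mural to club cells. Tmsb4x alone took 1.35% of the UMIs of ND endothelial cells. Within that class, capillary cells were at 14973 and luminal cells at 5696. Dendritic cells, with 19 cells in the ND library, were higher still at 33568, and with 25787 in 24 cells they also led the HFD library. Among classes of at least 20 cells, the HFD order went on with monocytes (14049), macrophages (12573), endothelial cells (7712), T cells (5689) and fibroblasts (2506).

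Tmsb10, the other thymosin, followed a different order. Among ND classes of at least 20 cells, monocytes (4066; 3736 to 4419) and T cells (3796; 3660 to 3936) were highest and could not be separated. The 19 ND dendritic cells were higher, at 4998 (4651 to 5364), and 13 NK cells were at 4535. B cells followed at 2029, fibroblasts at 1390, endothelial cells at 1324 and Schwann cells at 902. Macrophages were at 404 (373 to 438), club cells at 260, and mural cells (119) and neutrophils (106) were low and could not be separated from each other. Fibroblasts thus held more Tmsb10 than macrophages while holding far less Tmsb4x. In the same ND library, Tmsb10 was 1.71 lower on the log2 scale in macrophages than in endothelial cells.

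**Figure D1:**
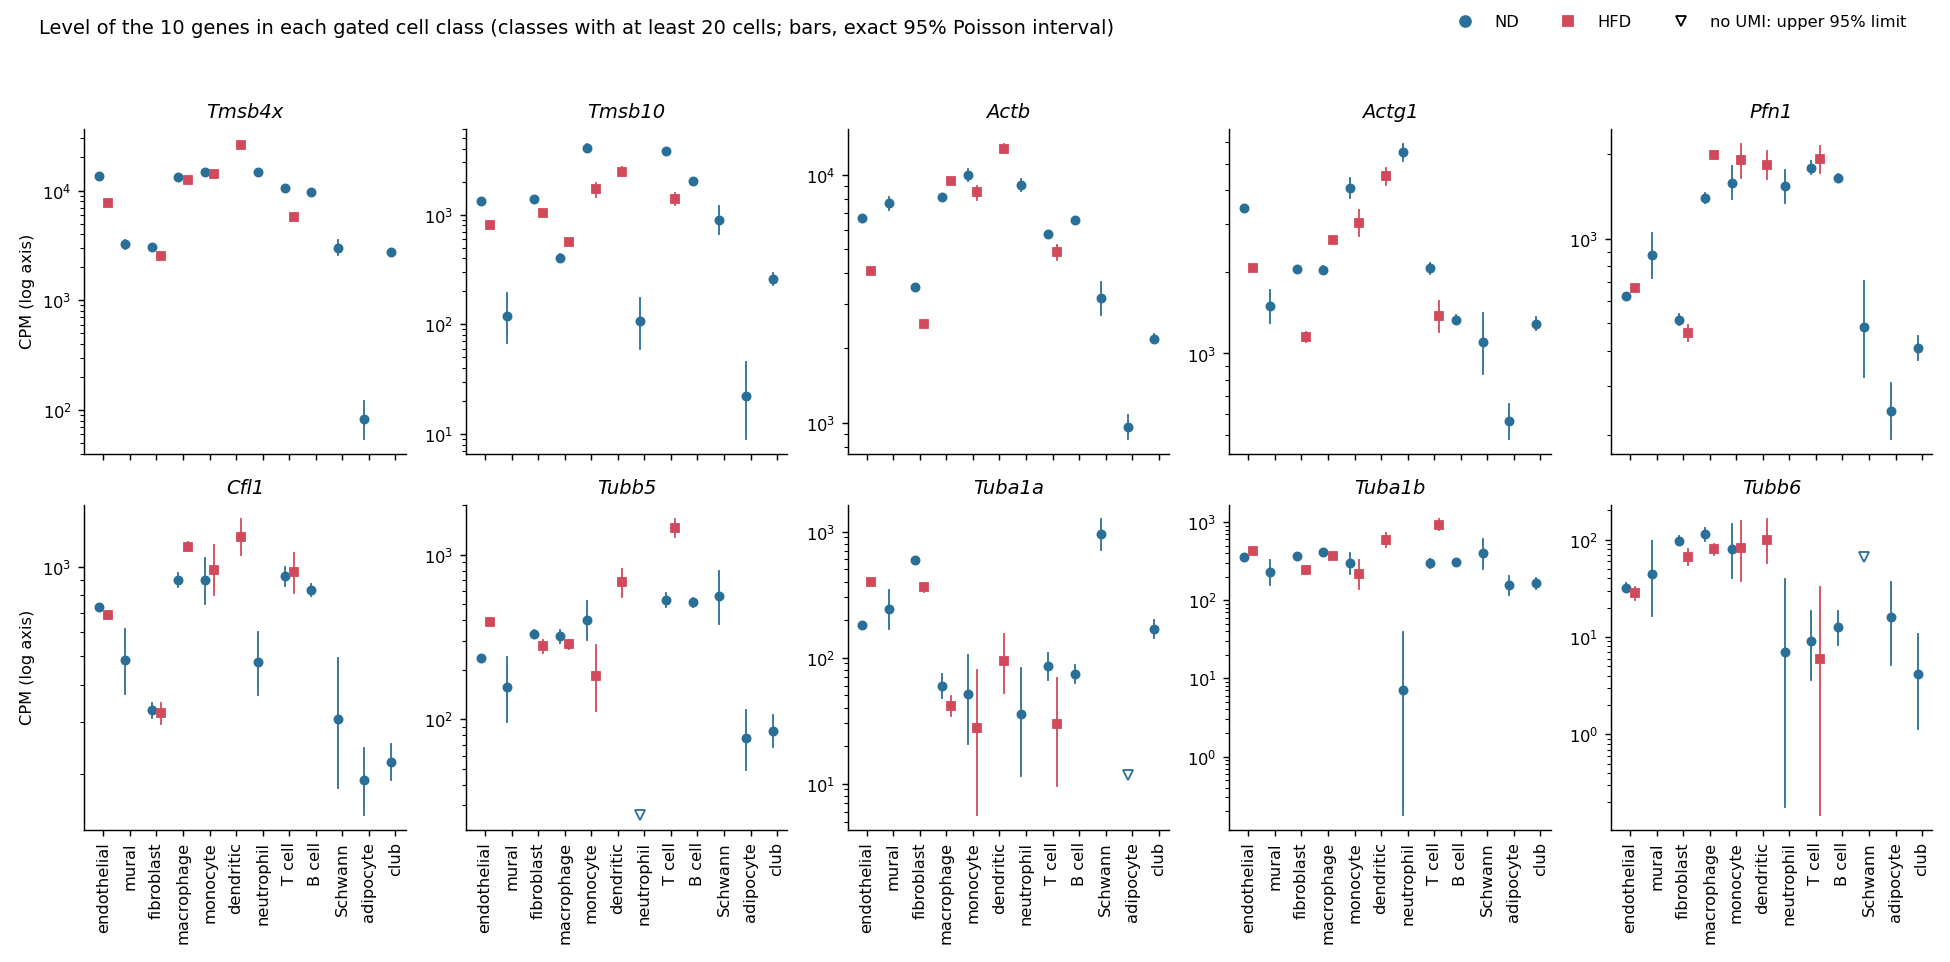
Level of each of the 10 genes, in CPM on a log axis, in every cell class with at least 20 cells, for the ND library (circles) and the HFD library (squares). Bars are exact 95% Poisson intervals, and open triangles mark the upper limit where no UMI was counted. Tmsb4x separates blood-derived cells and the endothelial class as a whole from mural cells, fibroblasts, Schwann cells, club cells and adipocytes. Tmsb10 is highest in monocytes and T cells of the ND library and in dendritic cells of the HFD library. Tuba1a is highest in Schwann cells and fibroblasts of the ND library.

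Both thymosins are counted in the same cells, in sums where deep cells weigh more. The share of Tmsb10 in the summed thymosins therefore removes scaling but not depth. It was 31.1% in ND and 29.1% in HFD fibroblasts, and 26.6% and 19.7% in T cells. Capillary endothelial cells were at 8.40% and 8.72% and luminal endothelial cells at 15.9% and 17.3%. In the means of luminal cells thinned to equal depth, Tmsb10 was lower under HFD, and the order of the diets in this share turned. Macrophages were at 2.98% and 4.26%, of which the resident type was at 2.18% and 2.09% and the foam type of the HFD library at 5.30%. Thinned means of the resident type were 0.231 and 0.233 for Tmsb10 and 10.96 and 8.21 for Tmsb4x. There too the order of the diets turned, but the intervals of the resident shares overlapped (1.93% to 2.45% under ND and 1.81% to 2.40% under HFD). Thinned means carry no interval, here and below. ND neutrophils had the lowest share, 0.719%. Within most classes the diets lay close together beside this spread. Among classes of at least 20 cells under both diets they lay furthest apart in T cells and in monocytes, which were at 21.8% under ND and 10.8% under HFD.

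Nearly every endothelial barcode had a UMI of Tmsb4x. When each cell was thinned to 1000 UMIs to remove the difference in depth, 99.7% of ND endothelial cells and 98.8% of HFD endothelial cells kept a UMI of Tmsb4x. For Tmsb10 the shares were 61.4% and 47.3%, while without thinning they were 87.0% and 89.6%. In ND cells, 92.0% of T cells, 67.1% of fibroblasts and 22.2% of macrophages kept a UMI of Tmsb10 after thinning (96.6%, 92.4% and 50.8% before). No class is known to lack Tmsb10. Among classes of at least 20 cells, the lowest levels were 22.2 CPM in ND adipocytes and 106 in ND neutrophils. How much free RNA adds to the share of any class was not tested. Across ND endothelial cells Tmsb4x varied more than sampling alone would give, with a variance 3.27 times its mean, and in capillary cells alone 2.73 times. Spearman's rho of the thinned counts over 2199 ND endothelial cells was 0.13 between the thymosins, 0.31 between Tmsb4x and Actb and 0.34 between Actb and Actg1. These cells share library and depth, and the values are a description.

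Both actins were counted in every class. Actb was at 9995 CPM in ND monocytes, 9098 in neutrophils, 8107 in macrophages, 7662 in mural cells and 6702 in endothelial cells. It was at 3542 in fibroblasts and 963 in adipocytes. Among classes of at least 20 cells Actg1 was highest in neutrophils (5503), monocytes (4066) and endothelial cells (3444), with the 19 dendritic cells at 3828, and T cells (2055), fibroblasts (2052) and macrophages (2031) could not be separated. The share of Actg1 in both actins was 33.9% (33.7% to 34.2%) in ND and 33.6% (33.1% to 34.0%) in HFD endothelial cells. It was 42.1% and 42.5% in luminal cells, 36.7% and 31.5% in fibroblasts, 20.03% and 21.7% in macrophages and 16.8% in ND B cells. In endothelial cells the balance between the actins was thus kept within 1 percentage point while their sum, given below, differed between diets. In fibroblasts the intervals of the 2 shares did not overlap (36.0% to 37.3% and 30.3% to 32.6%).

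Pfn1 was highest in blood-derived cells, and so was Cfl1 apart from neutrophils. ND T cells had 1790 CPM of Pfn1, B cells 1643, monocytes 1584, neutrophils 1539 and macrophages 1395, against 628 in endothelial cells and 515 in fibroblasts. Cfl1 was at 929 in T cells, 901 in macrophages, 898 in monocytes and 832 in B cells, against 732 in endothelial cells, 475 (368 to 603) in neutrophils and 328 in fibroblasts.

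The 4 tubulins each had an order of their own. Tuba1a was highest in ND Schwann cells (956) and fibroblasts (599), at 182 in endothelial cells and at 59.8 in macrophages. Its near copy Tuba1b was level across most classes, from 412 in macrophages to 357 in endothelial cells and 296 in T cells. Tubb5 was at 559 in Schwann cells, 533 in T cells, 515 in B cells and 237 in endothelial cells, and no UMI was counted among 141014 UMIs of ND neutrophils, which allows up to 26.2 CPM. Neutrophils had 1 UMI each of Tuba1b and Tubb6. Tubb6 was highest in macrophages (113) and fibroblasts (97.3) and at 32.2 in endothelial cells.

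Pairs of tubulins showed the same split by class. Tuba1a made 70.7% of the UMIs of Tuba1a and Tuba1b in ND Schwann cells, 62.2% in fibroblasts, 33.7% in endothelial cells and 12.7% in macrophages. Tubb6 made 26.1% of the UMIs of Tubb6 and Tubb5 in ND macrophages, 22.8% in fibroblasts, 14.6% in capillary endothelial cells and 1.76% in luminal endothelial cells, the last from 8 UMIs of Tubb6.

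**Figure D2:**
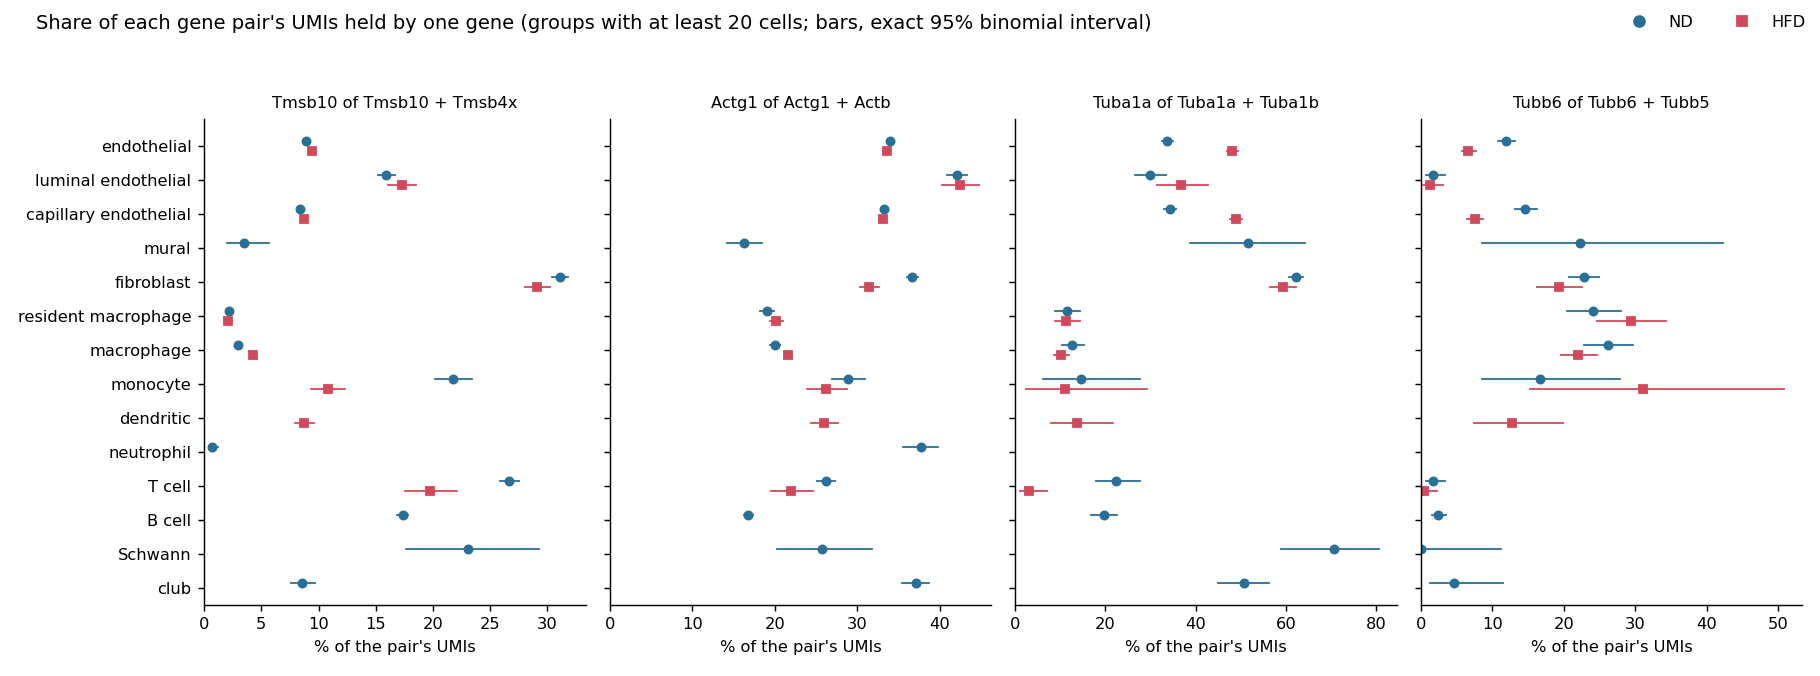
Share of 1 gene in the UMIs of a pair, in percent, for groups with at least 20 cells in the ND library (circles) and the HFD library (squares), with exact 95% Clopper-Pearson intervals. The 4 panels show Tmsb10 of both thymosins, Actg1 of both actins, Tuba1a of Tuba1a and Tuba1b, and Tubb6 of Tubb6 and Tubb5. Shares differ between classes in every panel, and in endothelial cells the diets lie close for actins and thymosins but apart for the tubulins.

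Dividing cells carried a tubulin pattern of their own. Cells of any class that held at least 3 of 6 cell cycle markers (Top2a, Mki67, Cdk1 and others) numbered 73 under ND and 63 under HFD. In these, Tubb5 stood at 1643 and 1593 CPM and Tuba1b at 1227 and 1189, with Tuba1a at 238 and 329. Of ND T cells, 12 were cycling and held 2266 of Tubb5 and 1413 of Tuba1b, against 276 and 130 in the other 252. Among HFD T cells 18 of 26 were cycling, and their levels were 1803 and 1172. Over all T cells Tubb5 was 1.44 higher and Tuba1b 1.65 higher on the log2 scale in the HFD library, while in non-cycling T cells Tubb5 was at 276 under ND and 237 under HFD and Tuba1b at 130 and 79. The HFD values rest on 8 cells, with 9 UMIs of Tubb5 (108.3 to 449.8 CPM) and 3 of Tuba1b (16.3 to 230.8 CPM). The share of Tuba1a within the alpha-tubulin pair was 5.37% (2.35% to 10.3%) in ND and 2.53% (0.694% to 6.35%) in HFD cycling T cells, from 8 and 4 UMIs of Tuba1a. Tmsb10 in T cells went the other way, from 3796 to 1399 over all T cells, from 4361 to 1149 in cycling and from 3712 to 2264 in non-cycling cells. The last value rests on the same 8 HFD cells.

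The genes were then compared between diets, in endothelial cells first because they are the largest class. Thymosins and actins were lower in the HFD library, and the tubulins Tubb5, Tuba1a and Tuba1b were higher. Tmsb4x was at 13513 (13442 to 13584) CPM under ND and 7712 (7646 to 7779) under HFD, 1.75-fold lower. Tmsb10 was at 1324 and 807, Actb at 6702 and 4094, and Actg1 at 3444 and 2069. Tubb5 was at 237 and 392. Tuba1a was at 182 (174 to 190.1) and 399 (384 to 414), 2.20-fold higher. Between these, Pfn1 was at 628 and 666, Cfl1 at 732 and 684, Tuba1b at 357 and 429, and Tubb6 at 32.2 and 28.0. All 10 together took 27150 CPM under ND and 17281 under HFD.

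On the log2 scale of HFD over ND, the summed thymosins were -0.80 (-0.81 to -0.79), the summed actins -0.72 (-0.74 to -0.70), profilin with cofilin -0.01 (-0.05 to 0.03) and the summed tubulins 0.63 (0.58 to 0.67). Tuba1a was 1.13 (1.05 to 1.22), Tubb5 0.73 (0.65 to 0.81) and Tuba1b 0.27 (0.20 to 0.34), and the interval of Tubb6, -0.20 (-0.46 to 0.06), included 0. At a fold of 1.5, 4 of the 10 genes were lower in the HFD library, against 14.8% of the 9032 genes with at least 100 UMIs in this class, and 2 of 10 were higher, against 4.01%. The genes were chosen with this contrast known, so nothing is read from these counts. The median of all genes was -0.17, so thymosins and actins lay below it and Pfn1, Cfl1 and 3 tubulins above it. Scaled by the median of ratios, which moves all endothelial ratios by 0.16, Tmsb4x was at -0.65 and was the only 1 of the 10 still 1.5-fold lower, while Tuba1a and Tubb5 were still 1.5-fold higher, beside 8.80% of genes lower and 6.59% higher. With mitochondrial, haemoglobin and ribosomal genes left out of the totals, 2 were lower and 2 higher at that fold, beside 9.79% and 6.01%.

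Haemoglobin RNA and the mitochondrial share moved with diet in the same cells. Haemoglobin genes took 0.624% of ND and 4.08% of HFD endothelial UMIs, the median mitochondrial share was 17.9% and 22.8%, and ribosomal protein genes took 10.4% and 7.92%. Scgb1a1 of club cells was at 134.7 CPM in ND and 0.149 in HFD endothelial cells. The comparison was therefore repeated without haemoglobin-rich cells and within bins of mitochondrial share and of depth. No setting was made to leave out cells with Scgb1a1, and its bearing on these ratios was not tested. Without cells of 1% or more haemoglobin UMIs, the summed thymosins were at -0.73, the actins at -0.68 and the tubulins at 0.68. Within 5 bins of mitochondrial share from 5% to 30%, every bin of endothelial cells had thymosins lower in the HFD library (-0.79 to -0.64), actins lower (-0.81 to -0.61) and tubulins higher (0.63 to 0.91). In capillary cells split into 3 bins of depth, the ranges were -0.97 to -0.91 for thymosins, -0.87 to -0.77 for actins and 0.51 to 0.75 for tubulins.

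Capillary cells had lower thymosins and lower actins in the HFD library, and in luminal cells the actins were lower and Tmsb4x lay closer between diets. In capillary cells Tmsb4x went from 14973 CPM in the ND to 7966 in the HFD library (-0.91) and Tmsb10 from 1373 to 761 (-0.85). In luminal cells Tmsb4x was at 5696 and 5054 (-0.17; -0.23 to -0.11), and the interval of Tmsb10, at 1080 and 1055 (-0.03; -0.17 to 0.10), included 0. When each luminal cell was thinned to 1000 UMIs, however, the mean of Tmsb10 was 1 UMI in ND and 0.789 in HFD cells. Actb was lower in both, at 7396 and 4331 in capillary (-0.77) and 2889 and 1868 in luminal cells (-0.63). Its thinned means in luminal cells were 2.65 and 1.87 UMIs, under 1.5-fold apart. Actg1 was at -0.78 in capillary and -0.61 in luminal cells. Tubb5 was higher in both, 0.79 and 0.66, but Tuba1a went from 185 to 425 in capillary cells (1.201) and from 165 to 180 in luminal cells (0.13; -0.22 to 0.47). Pfn1 was at 0.02 in capillary cells and at 0.61 (0.43 to 0.78) in luminal cells, where its means after thinning were 0.538 and 0.592 UMIs, under 1.5-fold apart. Tuba1b was at 0.33 in capillary cells and on the other side of 0 in luminal cells (-0.33; -0.58 to -0.08). Of the 10 genes 4 were 1.5-fold lower and 2 higher in capillary cells, beside 15.1% and 4.62% of 8333 genes. In luminal cells 2 of the 9 genes with enough UMIs were lower and 2 higher, beside 10.5% and 6.11% of 2879 genes. The difference between these endothelial types was not tested, and only 76 HFD cells were luminal.

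The share of Tuba1a within the alpha-tubulin pair rested on the same cells in both terms and moved with diet as well, from 34.3% to 48.9% in capillary cells and from 29.9% to 36.9% in luminal cells. In the latter Tuba1b was lower under HFD and the interval of Tuba1a included 0, with thinned means of Tuba1a at 0.163 and 0.132. In all endothelial cells it was 33.7% (32.5% to 35.0%) in the ND and 48.2% (46.8% to 49.5%) in the HFD library. It was 62.2% and 59.4% in fibroblasts and 12.7% and 10.1% in macrophages. Tubb6 within its pair went from 11.96% to 6.67% in endothelial cells.

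Capillary cells with at least 2 UMIs of Cxcl9 numbered 603 under ND and 70 under HFD, and those with none 912 and 802. Cells chosen for 2 UMIs of a gene are deeper, here with a median of 5191 UMIs against 2778 under ND. Both kinds lay on the same side of 0 as the whole class for the genes named next. In the former, Actb was at -1.01, Actg1 at -1.14, Tmsb4x at -0.97 and Tuba1a at 1.04. In the latter, Actb was at -0.64, Actg1 at -0.73, Tmsb4x at -0.77, Tubb5 at 0.93 and Tuba1a at 1.27. Tmsb10 was higher in Cxcl9 cells within each library, at 1629 against 1068 CPM in ND and 984 against 715 in HFD cells. Barcodes that passed the gates of both endothelial and mural cells, 53 ND and 77 HFD, also had lower actins (-0.59) and higher tubulins (0.79) in the HFD library, with Tmsb4x at -0.46. In those of endothelial and macrophage gates, 32 and 87, the median over the 10 genes was 0.28, beside -0.03 over all genes. In those of endothelial and fibroblast gates, 108 and 82, it was -0.30, beside -0.06. Whether these barcodes are doublets was not tested.

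**Figure D3:**
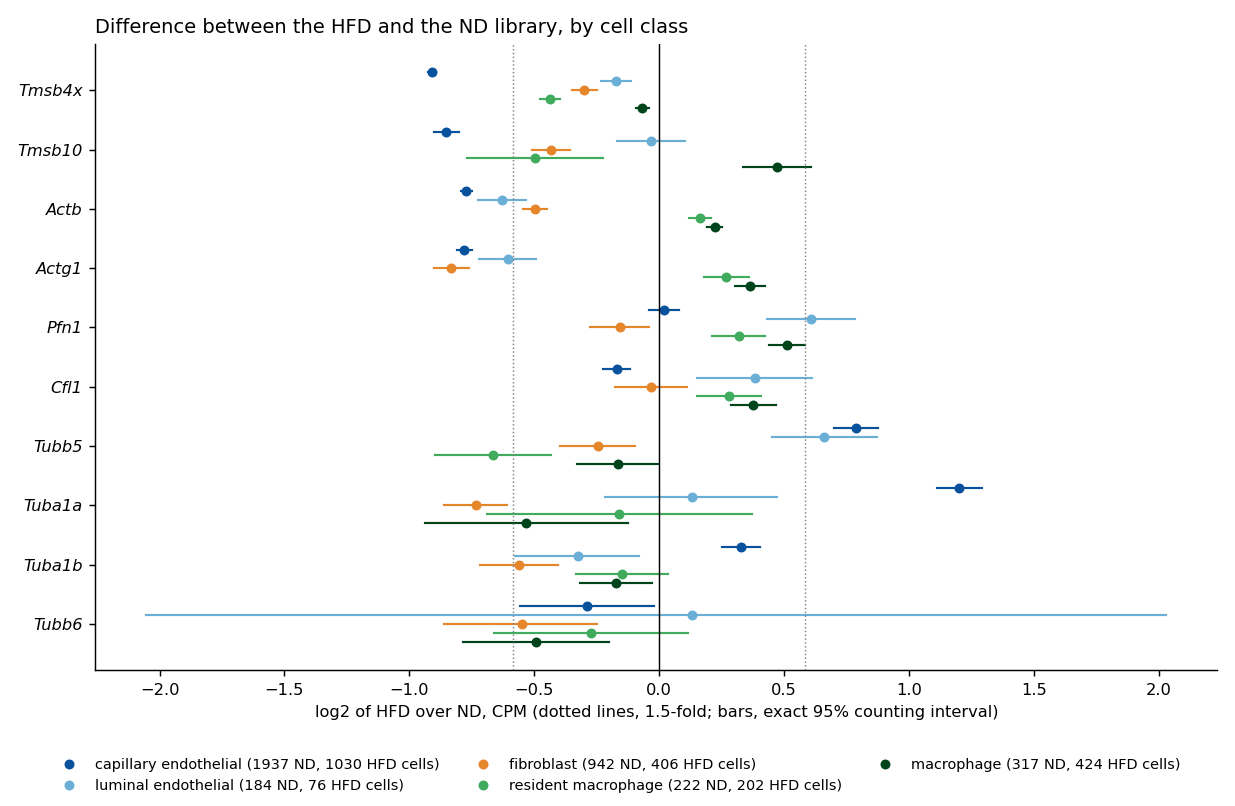
Log2 ratio of HFD over ND for each gene (rows) in capillary and luminal endothelial cells, fibroblasts, resident macrophages and all macrophages, from CPM, with exact 95% intervals of counting error. Dotted lines mark a 1.5-fold difference. The thymosins of capillary cells lie near -0.9, and in luminal cells Tmsb4x is at -0.17 and Tmsb10 at -0.03. Actins are below 0 in endothelial cells and fibroblasts and above 0 in macrophages.

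Fibroblasts had lower levels in the HFD library for all 10 genes, tubulins included, or for 9 when scaled by the median of ratios, with Cfl1 then at 0.11. Tmsb4x was at 3084 and 2506 CPM (-0.30), Tmsb10 at 1390 and 1030 (-0.43), Actb at 3542 and 2511 (-0.50) and Actg1 at 2052 and 1153 (-0.83; -0.90 to -0.76). Tuba1a was at 599 and 360 (-0.73; -0.86 to -0.61), Tuba1b at 364 and 247 (-0.56), Tubb5 at 329 and 278 (-0.25) and Tubb6 at 97.3 and 66.4 (-0.55). Pfn1 was at -0.16 (-0.28 to -0.04), and the interval of Cfl1, -0.03 (-0.18 to 0.11), included 0. The median over the 10 genes was -0.46, beside -0.16 over all genes. At a fold of 1.5, 2 of 10 were lower (Actg1 and Tuba1a) and 0 higher, beside 13.3% and 3.72% of 6451 genes. Tuba1a thus lay on the opposite side of 0 from its value in endothelial cells, a difference that was not tested. Tubb5 did so over the whole class, but it was higher in 3 of 4 mitochondrial bins (-0.50 to 0.25) and in 1 of 3 bins of depth (-0.37 to 0.16).

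Part of the fibroblast pattern moved with the mitochondrial share, whose median was 14.1% in ND and 22.4% in HFD fibroblasts. Within 4 bins of that share, actins were lower in the HFD library in every bin (-0.52 to -0.07), tubulins also (-0.63 to -0.10), but thymosins were higher in 3 of 4 bins (-0.05 to 0.22). Within 3 bins of UMIs per cell, thymosins (-0.50 to -0.16), actins (-0.84 to -0.58) and tubulins (-0.72 to -0.44) were all lower. Among cells of 15% to 20% mitochondrial UMIs in both libraries, 5 of the 10 genes were lower and 5 higher, with Actg1 at -0.55, Tuba1a at -0.46, Tuba1b at -0.27, Actb at -0.26 and Tmsb4x at 0.32.

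Macrophages differed little at the level of Tmsb4x, at 13178 under ND and 12573 under HFD (-0.07; -0.09 to -0.04). Tmsb10 was at 404 and 560 (0.47; 0.34 to 0.61), Actb at 8107 and 9454 (0.22), Actg1 at 2031 and 2613 (0.36), Pfn1 at 1395 and 1988 (0.51; 0.44 to 0.58) and Cfl1 at 901 and 1169 (0.38). Tubulins lay below 0, with Tubb5 at -0.17, Tuba1b at -0.17, Tubb6 at -0.49 and Tuba1a, at 59.8 and 41.3 CPM, at -0.53 (-0.94 to -0.13). After thinning, the order turned for Tubb5, with means of 0.260 and 0.283 UMIs, and for Tuba1b, with 0.362 and 0.420. Of the UMIs of Tubb5, 5 cycling ND macrophages held 139 of 486, and 7 cycling HFD macrophages held 159 of 841. Without cycling cells Tubb5 was at 237 CPM under both diets, and Tuba1b at 341 under ND and 321 under HFD. Tubb6 had thinned means of 0.127 and 0.0637, past 1.5-fold lower. In the sums, none of the 10 reached 1.5-fold in either direction, beside 15.3% of 4758 genes lower and 9.18% higher. The median of ratios moves macrophage ratios by 0.14, which puts Tmsb4x at 0.07. The actins were higher in the HFD library in all 4 mitochondrial bins (0.21 to 0.40) and Pfn1 also (0.28 to 0.74), while thymosins were lower in 3 of 4 bins (-0.34 to 0.23) and tubulins were split, 2 of 4 lower.

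The macrophages of both libraries were not of the same kinds, with 149 of the 424 HFD cells and 8 of the 317 ND cells in the foam gate. Foam macrophages of the HFD library had 14730 CPM of Tmsb4x, 824 of Tmsb10, 10187 of Actb and 2287 of Pfn1. Resident macrophages of the same library had 8617, 184, 8366 and 1577, lower for each gene. The 8 ND foam cells were at 16764 for Tmsb4x and 982 for Tmsb10. Within the resident type alone, Tmsb4x was lower in the HFD library, at 11668 and 8617 CPM (-0.44; -0.48 to -0.40). Tmsb10 was at 260 and 184 (-0.50; -0.77 to -0.23), but with each cell thinned to 1000 UMIs its mean was 0.231 in ND and 0.233 in HFD resident macrophages. In cells of 2500 to 5000 UMIs the difference was 0.09 (-0.41 to 0.59), and in cells of 5000 to 10000 UMIs it was -0.52 (-0.89 to -0.14). The actins were again higher, Actb at 0.16 and Actg1 at 0.27, as were Pfn1 (0.32) and Cfl1 (0.28). Tubb5 went from 373 to 235 (-0.66; -0.90 to -0.43) and was the only 1 of 10 past 1.5-fold over the class, beside 9.25% of 2682 genes lower and 3.17% higher. Its means after thinning were 0.326 and 0.238, under 1.5-fold apart. Within bins its sign was not kept, with a range of -0.10 to 0.18 over 3 mitochondrial bins and of -0.83 to 0.21 over 2 bins of depth. Cycling cells were not set apart within the resident type.

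**Figure D4:**
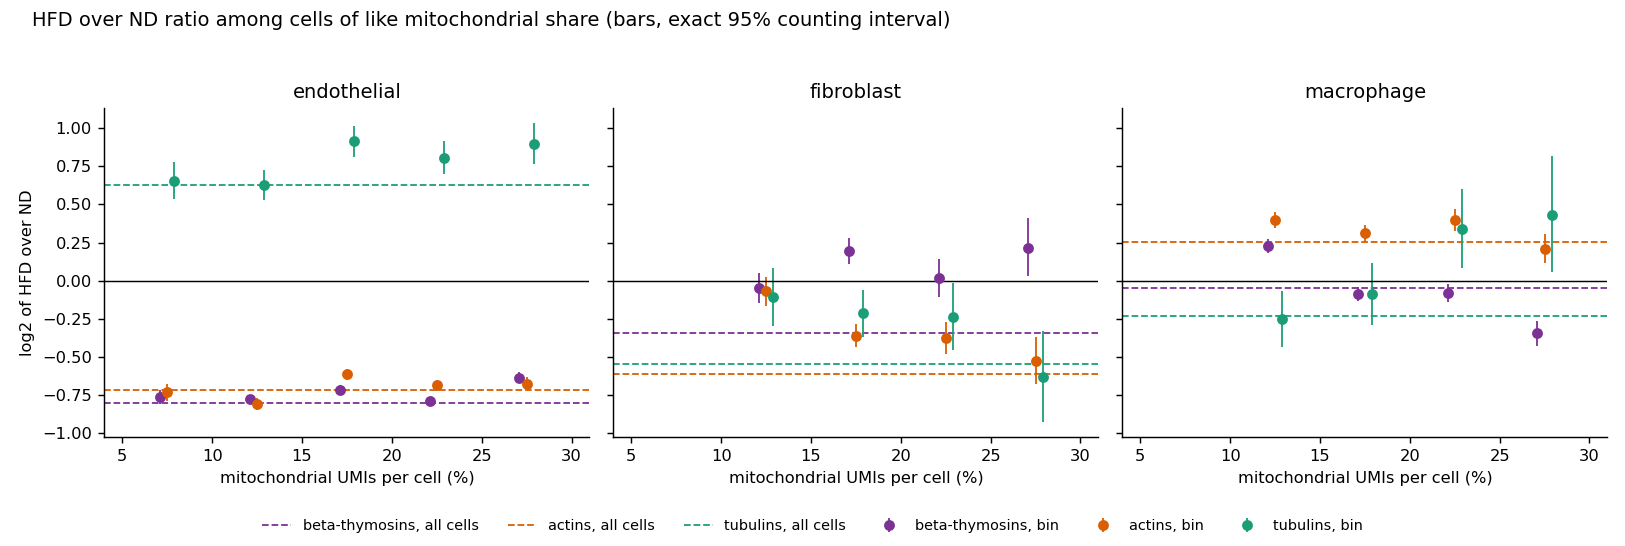
Log2 ratio of HFD over ND for the summed thymosins, actins and tubulins in bins of mitochondrial share (5% wide), in endothelial cells, fibroblasts and macrophages, with exact 95% intervals and dashed lines at the value over all cells. Endothelial actins and thymosins lie below 0 and tubulins above 0 in all 5 bins, whereas fibroblast thymosins lie above 0 in 3 of 4 bins although their value over all cells is -0.34.

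Smaller classes are given as values. Monocytes had 4066 CPM of Tmsb10 in 29 ND cells and 1699 in 23 HFD cells (-1.26), with Tmsb4x at 14616 and 14049. Dendritic cells had 4998 of Tmsb10 in 19 ND and 2472 in 24 HFD cells (-1.02). Tmsb10 was therefore lower in the HFD library in endothelial cells, fibroblasts, T cells, monocytes and dendritic cells, and higher over all macrophages. In fibroblasts it was lower in 2 and higher in 2 of 4 mitochondrial bins (-0.26 to 0.22), in luminal cells the interval included 0, in resident macrophages the sign was not kept across bins, and neutrophils were at 106 in 72 ND and 563 in 7 HFD cells.

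Other genes of the same systems were read from lists, where a gene counted if it had at least 20 UMIs in the class. Of the 15 genes for SRF, its cofactors and its classical targets, 5 were at least 1.5-fold lower in HFD endothelial cells and 0 higher. Over all 12009 genes with at least 20 UMIs in that class, 19.6% were lower and 6.02% higher. The median of the list was -0.25, beside -0.18 over those genes. Ctgf, a matricellular gene, went from 68.5 to 16.1 CPM (-2.09; -2.40 to -1.79) and Srf itself from 178 to 46.1 (-1.95; -2.13 to -1.77). Next came Vcl, for vinculin of adhesion sites, from 271 to 102 (-1.41), Zyx, for zyxin of stress fibres, from 498 to 236 (-1.08), and Cyr61 from 622 to 313 (-0.99). Luminal cells held 495 of the 701 ND and 47 of the 108 HFD endothelial UMIs of Ctgf. In capillary cells Ctgf was at -1.44, behind Srf (-2.02) and Vcl (-1.51), and Cyr61 was at -0.72. Other members differed by less, such as Egr1 (-0.39), Flna (-0.24), Tpm1 (0.07) and Tagln2 (0.21). Of these, Tpm1 was at -0.97 in luminal cells and at 0.27 (0.13 to 0.41) in capillary cells. In luminal cells 9 of 14 were lower and 0 higher (median -0.83), beside 16.4% and 11.7% of 8097 genes, with Ctgf at -2.27 and Cyr61 at -2.18. In fibroblasts 6 of 15 were lower and 0 higher (median -0.51), beside 19.2% and 5.78% of 10660 genes, with Ctgf from 1250.5 to 258.6 (-2.27) and Srf at -1.47. In macrophages 3 of 13 were lower and 1 higher (median -0.22), with Srf at -0.11 (-0.65 to 0.45) and Cyr61 (-2.31) and the early genes Egr1 (-1.19) and Junb (-0.63) lowest. The higher one was Tpm1 (0.86). Within resident macrophages Egr1 (-0.33) and Junb (-0.20) did not reach 1.5-fold, and Cyr61 was at -1.50. Of 9093 genes in macrophages 19.8% were lower and 11.7% higher. These shares are the background of every list count that follows. Of the list, Srf, Vcl, Myl9 and Filip1l hold a CArG box in the window searched, and no window was at hand for Ctgf, Cyr61, Egr1, Mkl1 and Mkl2.

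Tubulins beyond the 4 named were read in the same way. In endothelial cells 7 of the 10 listed had enough UMIs, 2 were at least 1.5-fold higher in the HFD library and 0 lower, beside 6.02% and 19.6% of all genes, and the median was 0.46. The largest differences were those of Tubb3 (1.98, from 24 and 62 UMIs), Tubb2b (0.71) and Tuba1c (0.53; 0.38 to 0.69), followed by Tubb4b, from 266 to 365 CPM (0.46). Of the UMIs of Tubb3, luminal cells held 17 of 24 under ND and 56 of 62 under HFD. In fibroblasts 3 of 8 were lower and 0 higher (median -0.41), with Tubb2a at -0.78, Tubb4a at -0.70 and Tuba4a, with 18 and 4 UMIs, at -1.16. Tuba1c lay the other way, at 0.58 (0.18 to 0.98), just short of 1.5-fold. In luminal cells 3 of 6 were lower and 1 higher (median -0.37), with Tubb2a at -0.82, Tubb4b at -0.63 and Tubg1 at -0.87 against Tubb3 at 2.85 from 17 and 56 UMIs. In macrophages 0 of 5 were lower and 1 higher, Tubg1 with 5 and 21 UMIs (1.11; -0.33 to 2.88). Of 11 genes for tubulin folding and binding, 0 were past 1.5-fold in endothelial cells in either direction, and 3 of 10 were lower in fibroblasts, with Tbcb at -0.69. In macrophages Tbce (-1.28, from 20 and 16 UMIs) and Stmn1 (-0.69) were lower past that fold. Tbcc (1.09; -0.06 to 2.41) and Tbcd (0.82; -0.14 to 1.88) were higher past it, but both intervals included 0. Stmn1 was at -2.28 (-2.99 to -1.62) in the resident type, with cycling cells included.

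Genes that build and turn over actin filaments were read next, beside the 19.6% of all endothelial genes that were lower and the 6.02% that were higher. Of 9 subunits of the Arp2/3 complex, which starts branched filaments, 1 was lower in HFD endothelial cells (Actr3, from 260.5 to 164.5 CPM, -0.66), and Arpc1b was at 0.31. In macrophages 0 of 9 passed 1.5-fold, and all 9 lay above the median of all genes (list median 0.24). Within the resident type Arpc4 was at -0.13, below the median of all genes there (-0.11). Of 9 formins and Ena/VASP proteins, which lengthen unbranched filaments, 1 was lower in endothelial cells (Vasp, -0.77) and 1 higher (Evl, 0.83). In fibroblasts 3 of these 9 were lower, Daam1 (-0.81), Enah (-0.65) and Fmnl3 (-1.24, from 19 and 4 UMIs), and 0 higher. In macrophages 1 of 8 was lower, Fmnl1 (-1.17), and 2 were higher, Evl (0.77) and Fmnl2 (1.04). In the resident type none of them passed 1.5-fold, with Evl at -0.18, Fmnl1 at -0.43 and Fmnl2, from 9 and 13 UMIs, at 0.49. Of 13 other turnover proteins 1 was lower (Dstn, the destrin related to cofilin, -0.64) and 1 higher (Capg, 1.004) in endothelial cells, and in fibroblasts 2 of 13 were lower, Cap1 (-0.65) and Wdr1 (-0.59). Capg was at 0.87 over all macrophages but at -0.70 (-1.05 to -0.35) in the resident type. Of 6 kinases and phosphatases of cofilin, 2 were lower in endothelial cells, Ssh1 (-0.65) and Ssh3 (-0.74). In macrophages 2 of 5 were lower, Limk1 (-0.91) and Ssh2 (-0.66; 0.06 in the resident type), and in fibroblasts 1 of 6 was higher, Ssh2 (0.62). The chaperonin CCT, which folds actin and tubulin, had 0 of 7 subunits past 1.5-fold in endothelial cells, fibroblasts and macrophages alike.

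Of 18 genes for myosin, tropomyosin and actin linkers, 2 were lower in endothelial cells (Vcl and Zyx, both also on the SRF list), beside 19.6% of all genes, and 2 were higher, beside 6.02%. The latter were Ezr for ezrin, from 18.3 to 46.4 CPM (1.34), and Tpm2 from 24 and 30 UMIs (0.93). Msn (0.34) and Rdx (0.38), the related linkers, were higher by less. In fibroblasts 4 of 18 were lower, with Ezr at -1.66 and Actn1 at -1.24, and 0 were higher. In macrophages Actn1, for alpha-actinin, went from 15.8 to 80.6 CPM (2.35; 1.75 to 3.02) and Ezr was at -0.68, while the resident type alone held under 20 UMIs of Actn1. Also past 1.5-fold in macrophages were Myh10, lower at -1.80 from 18 and 10 UMIs, and Tpm1, higher at 0.86. The muscle actin Acta2 was at 42.6 and 16.8 over all endothelial cells (-1.34), where luminal cells held 378 of its 436 ND and 76 of its 113 HFD UMIs. In capillary cells alone it was at -0.27 (-1.04 to 0.47). Of 5 actin binding proteins of leukocytes, 4 had enough UMIs in endothelial cells and 2 were higher, Coro1a from 8.50 to 19.98 CPM (1.23) and Fermt3 from 40 and 47 UMIs (0.84), and in macrophages 0 of 5 passed 1.5-fold.

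A list of 12 other abundant transcripts was read beside the 10 genes, since all of them share the same scaling. In endothelial cells 2 were at least 1.5-fold lower (B2m, from 3210 to 2041 CPM, and Fau, both at -0.65), 1 was higher (Gapdh, 0.77) and the median was -0.14. Each of Tmsb4x, Tmsb10, Actb and Actg1 had a lower ratio in these cells than any of the 12. In macrophages the iron storage genes Fth1 (1.12) and Ftl1 (0.86) were higher, as was Gapdh (0.59). In the resident type they were at -0.02, 0.16 and 0.31.

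Likeness in level across classes was described over 10 sums of at least 50 cells, 7 from the ND and 3 from the HFD library, with 4374 genes as candidates. Points of the same library share its depth. The genes most like Actb were Actr3 (Pearson's r = 0.97), Arpc5 (0.95) and Cap1 (0.95). Those most like Tmsb4x were H2-D1 (0.97) and Ankrd13a (0.96), and those most like Tubb5 were Anp32b (0.99), Dek (0.98) and Dcaf7 (0.98). Tmsb10 had Nsmce4a (0.97), Pnn (0.96) and Cpsf6 (0.96) nearest. Among the 10 genes themselves, Tmsb4x and Actb were at 0.95, Tubb5 and Tuba1b at 0.95, Tmsb10 and Tubb5 at 0.83, and the thymosins at -0.08 with each other.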

How the data were processed

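Single-cell RNA sequencing libraries of the aortic arch were made by droplet capture (10x), 1 per diet. The authors deposited raw UMI counts per gene and barcode, made with Cell Ranger, version 3.0.1 in the file headers, on the build mm10 named in the submitters' processing notes. The annotation behind the counts is not stated there. Those notes also name Seurat 3.2.0 and R 4.0.0. No value was normalized in the deposited counts. The counts of both libraries joined were not used here.

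Barcodes with at least 200 genes, 200 UMIs and at most 30% mitochondrial UMIs were kept, as in the study's methods, 5416 of 10234 under ND and 2739 of 14225 under HFD. The libraries shared 39 barcodes, 1 of them among kept cells. Kept cells had 640 to 61331 UMIs under ND and 1176 to 61381 under HFD. Classes were gated by markers, with mixed barcodes left out in place of a doublet caller. A further setting also left out the 6% of cells with the highest Scrublet score (scanpy 1.11.5). UMIs were summed per class and library and divided by all UMIs of that class. Exact 95% intervals were computed, for levels from the Poisson distribution, for shares by Clopper-Pearson and for ratios from the binomial distribution given the sum of both counts. The background covers genes that reach 100 UMIs over both libraries, or 20 UMIs beside the lists. Likeness used log2 of the level with 10 CPM added, over genes with at least 1000 UMIs. Python 3.11.15, numpy 2.4.6, scipy 1.17.1, pandas 2.3.3 and matplotlib 3.10.9 were used, and the steps were tested on simulated data.

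The genes and lists were chosen with earlier results of these data known. Named are all 10 genes in every class of at least 20 cells, from the lists, members among the 2 largest differences in either direction among genes with at least 100 UMIs, and for Tmsb10, Tmsb4x, Actb and Tubb5 the 3 genes most alike. Some genes that these rules pick are not reported here. Further members of lists, and values of classes under 20 cells, were named after their values were seen. Alternatives changed the filter, the gates, the scaling, the weight of cells, doublets and cycling cells. Coordinates are those of GENCODE M21 on GRCm38.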

Additional observations from a re-analysis of the deposited data

Results flagged for a closer look

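Of the 10 genes, 7 had log2 ratios of HFD over ND on opposite sides of 0 in endothelial cells and in macrophages. Tmsb10 was at -0.71 in endothelial cells and 0.47 in macrophages, Actb at -0.71 and 0.22, Actg1 at -0.73 and 0.36, and Cfl1 at -0.098 and 0.38. The tubulins were the other way, with Tubb5 at 0.73 and -0.17, Tuba1a at 1.13 and -0.53, and Tuba1b at 0.27 and -0.17. Of all 4373 genes with at least 100 UMIs in both classes, 39.5% lay on opposite sides of 0, and 8.14% did so with neither interval including 0, which all 7 also met. The genes were chosen with these values known, so nothing is read from that. Within resident macrophages Tmsb10 was at -0.50 in the sum, but its thinned means were 0.231 and 0.233 and its sign was not kept across bins. With 1 library per diet the difference between these classes was not tested. For Cfl1 the endothelial value changed sign under 2 of 12 alternatives, and in macrophages Tubb5 did so under 5, Tuba1a under 1 and Tuba1b under 1. Within 4 mitochondrial bins of macrophages, Tubb5 was higher in 3 (-0.16 to 0.64), and Tuba1a (-0.81 to 0.34) and Tuba1b (-0.18 to 0.63) were each higher in 2. Tuba1b was higher in all 3 bins of resident macrophages (0.21 to 0.45) and in its thinned mean over all macrophages (0.362 under ND, 0.420 under HFD). The thinned mean of Tubb5 was also higher (0.260 and 0.283). In non-cycling macrophages Tubb5 was at 237 CPM under both diets.

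Barcodes left out by the filter, 4818 under ND and 11486 under HFD, also held these genes. Over them, Tmsb4x was at 5084 CPM under ND and 3344 under HFD, Actb at 3056 and 2125, and Tuba1a at 100.2 and 146, so each pair of values lay in the same order as in endothelial cells.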

How the results depend on the processing

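No paired analysis was possible because there was 1 library per diet. Every alternative kept the sign of the ratios of thymosins, actins and tubulins in endothelial cells and of actins in macrophages, though many sizes moved by more than counting error, and the cause was not tested. Cells of 2500 to 5000 UMIs, and those under 1% haemoglobin, were settings chosen after seeing the data. Endothelial thymosins (-0.80) were at -0.74 in cells of at most 20% mitochondrial UMIs, -0.71 at 15% to 20%, -0.83 with 2 markers, -0.76 with 4, -0.75 by most markers, -0.67 without mitochondrial, haemoglobin and ribosomal genes, -0.64 by the median of ratios, -0.78 as a mean of cells, -0.83 without high Scrublet scores, -0.89 at 2500 to 5000 UMIs and -0.73 without haemoglobin-rich cells. Endothelial actins (-0.72) were, in the same order but with the mean of cells and Scrublet left out as unmoved, at -0.69, -0.61, -0.74, -0.70, -0.66, -0.59, -0.56, -0.81 and -0.68. Endothelial tubulins (0.63) were at 0.91 in the 15% to 20% bin, 0.72 with 2 markers, 0.76 without those genes, 0.79 by the median of ratios, 0.72 as a mean of cells, 0.72 at 2500 to 5000 UMIs and 0.68 without haemoglobin-rich cells. Macrophage thymosins (-0.05) changed sign, to 0.085 at up to 20% mitochondrial UMIs and 0.094 by the median of ratios, and were at -0.086 in the 15% to 20% bin, -0.0054 with 4 markers, -0.018 without those genes, -0.13 as a mean of cells, -0.077 without cycling cells and -0.48 at 2500 to 5000 UMIs. Macrophage actins (0.25) were at 0.30 up to 20% mitochondrial UMIs, 0.31 in the bin, 0.29 with 2 markers, 0.28 without those genes, 0.39 by the median of ratios and 0.15 at 2500 to 5000 UMIs. Macrophage tubulins (-0.23) were at -0.38, -0.088 in the bin, -0.086 by the median of ratios, -0.076 as a mean of cells and 0.14 at 2500 to 5000 UMIs. Tmsb10 in ND macrophages over endothelial cells (-1.71) was at -2.22 in the bin, -2.26 with 2 markers, -1.85 with 4, -1.51 by most markers, -1.89 as a mean of cells and -2.24 at 2500 to 5000 UMIs. By the median of ratios, 8.80% of genes were 1.5-fold lower in endothelial cells and 10.05% in macrophages. Depth limits Tubb6 in luminal cells and every value of classes under 30 cells.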
